A study of Mus musculus with 40 samples.

Results

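A set of 10 genes of the fat cell was followed by name: 6 that encode secreted products (Adipoq, Lep, Retn, Cfd, Rbp4 and Serpina3c) and 4 that encode transcription factors of fat-cell differentiation (Pparg, Cebpa, Cebpb and Cebpd). All 10 symbols were found among the 47729 in the deposited tables, and all 10 passed the filter on low counts in every comparison. The tissue was the number 4 inguinal mammary gland, without its lymph node, of Balb/cJ mice whose ovaries had been removed at 21 days of age, in treated and control mice alike. After 7 days of recovery the mice were assigned to regimens. Estrogen-treated mice ate the control diet (AIN 93G based) and drank water with 200 nM estrogen, and were killed at 60 h or 84 h with control-diet mice. Other mice ate the control diet with conjugated linoleic acid (CLA, a group of isomers of linoleic acid), and were killed at 108 h or 132 h with control-diet mice of those times. The labels give 2.7% for CLA in terms of fat, in wording that leaves unclear whether the share is of the diet. Each of the 8 groups held 5 mice, so the 10 genes are described over 40 libraries.

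The mammary gland of a young mouse is largely a fat pad, and its fat cells secrete hormones and plasma proteins as well as storing lipid. Cebpb and Cebpd, CCAAT/enhancer-binding proteins (C/EBPs), act early in fat-cell differentiation and are also induced by inflammatory signals. They help to switch on Pparg, a lipid-activated nuclear receptor, and Cebpa, and this pair is mutually reinforcing and drives the genes of the mature fat cell. Adipoq encodes adiponectin, an insulin-sensitising hormone made almost only by fat cells. Lep encodes leptin, which reports the size of fat stores to the brain. Retn encodes resistin, which in mice comes from fat cells and opposes insulin action. Cfd encodes adipsin (complement factor D), a serine protease of the alternative complement pathway. Rbp4 encodes the plasma carrier of retinol, and Serpina3c a member of the serine protease inhibitor family.

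Some facts of the libraries touch the values that follow. Total counts were 18.2 to 40.0 in units of 1e+06 per library, and the lowest count of any of the 10 genes in any library was 418, for Cebpd. Over the 40 libraries, Spearman's rank correlation between the count of a gene and its RPKM (reads per kilobase of gene, scaled to library size, the authors' second unit) was 0.936 to 0.999 across the 10 genes. In all, 11 libraries carried a strong signal of 20 skin and hair markers (19 in the tables), with a mean log2 level of 1.885 to 6.221 against -0.414 to 1.299 in the other 29. They were 1 estrogen library at 60 h, 3 estrogen libraries and 1 control at 84 h, 3 controls at 108 h and 3 controls at 132 h, and no CLA library was among them. The animal numbers in the titles fall into 4 runs, and all 10 estrogen mice but no control lie in the last one, so that run and estrogen cannot be told apart. The 10 fat-cell markers were present in every group, and none of the markers of any cell type was listed at 0 counts in a whole group.

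Promoter sequence is shown here for the 3 genes whose upstream windows held the C/EBP core motif, because 3 of the 10 genes encode factors that bind it, and for Cfd and Adipoq, a pair with large changes in these data and no such match. The sequences are RefSeq's, from build GRCm38.p6, and run 5′ to 3′ over the 250 bases before a transcription start, the last base being position -1. Capitals mark the motif TTGCNNAA on either strand. Windows were listed for 9 of the 10 genes.
Lep (chr6:29059971-29060220, plus strand): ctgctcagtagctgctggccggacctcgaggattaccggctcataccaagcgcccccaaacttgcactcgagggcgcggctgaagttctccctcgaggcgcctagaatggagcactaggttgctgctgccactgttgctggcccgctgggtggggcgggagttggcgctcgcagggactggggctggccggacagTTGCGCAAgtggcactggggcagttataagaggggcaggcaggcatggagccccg
Pparg, the most downstream of 3 listed starts (chr6:115421816-115422065, plus strand): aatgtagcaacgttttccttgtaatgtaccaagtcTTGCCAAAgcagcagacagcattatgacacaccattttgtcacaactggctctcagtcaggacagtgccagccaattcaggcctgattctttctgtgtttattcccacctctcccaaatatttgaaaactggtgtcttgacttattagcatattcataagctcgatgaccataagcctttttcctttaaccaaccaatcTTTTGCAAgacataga
Rbp4, the more downstream of 2 listed starts (chr19:38124812-38125061, minus strand): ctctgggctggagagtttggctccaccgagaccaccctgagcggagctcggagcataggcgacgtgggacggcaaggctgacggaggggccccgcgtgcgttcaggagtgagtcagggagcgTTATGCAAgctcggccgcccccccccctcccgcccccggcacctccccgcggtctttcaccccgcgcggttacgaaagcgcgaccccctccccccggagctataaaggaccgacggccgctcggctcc
Cfd (chr10:79890603-79890852, plus strand): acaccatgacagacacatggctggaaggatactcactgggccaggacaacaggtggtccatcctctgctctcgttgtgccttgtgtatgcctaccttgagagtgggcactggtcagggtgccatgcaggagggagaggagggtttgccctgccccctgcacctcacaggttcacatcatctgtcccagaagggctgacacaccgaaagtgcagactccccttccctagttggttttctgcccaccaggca
Adipoq (chr16:23146286-23146535, plus strand): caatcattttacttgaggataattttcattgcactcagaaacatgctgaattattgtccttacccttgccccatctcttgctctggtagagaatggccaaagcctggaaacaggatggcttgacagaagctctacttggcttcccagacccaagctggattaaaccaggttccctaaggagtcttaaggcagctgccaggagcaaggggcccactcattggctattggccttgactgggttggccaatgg

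The match in Lep begins at -55 and reads as the motif on both strands. Pparg has a match at -215 and a second at -16, and Rbp4 has a match at -128. Such a match lies in 1 window of each of these 3 genes, where the 9 genes have 12 windows. It lies in 9.56% of 32851 mouse promoter windows of that length, so this is a description and no evidence of binding. Here and below the shares are of windows and not of genes, and a gene with several starts has several windows. The 32851 windows, called all windows below, leave out 1 chromosome, which holds none of the 10 genes. A CCAAT box, on either strand, lies in the windows of 3 genes: Adipoq (at -34, -27 and -7), Rbp4 at start site 2 (start sites are numbered by genome position), and Pparg at start sites 2 and 3. It lies in 33.8% of all windows. The TATA box TATAAA lies in the windows of Rbp4 (-28), Serpina3c (-132), Pparg at start site 2 (-29, minus strand) and Cebpa (-30), and in 12.4% of all windows. A direct repeat of AGGNCA with 1 base between the copies, the site of Pparg with its partner Rxr, matches 0 of the 12 windows of these genes on either strand and 0.338% of all windows.

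The 10 genes spanned a wide range of levels. On the RPKM scale, which allows levels of different genes to be compared, Cfd averaged 3174 ± 582 over the 20 control glands (SD), ahead of Adipoq at 734 ± 66.9. Cebpa followed at 285 ± 29.4, Retn at 227 ± 25.6, Cebpb at 144 ± 35.4 and Rbp4 at 108 ± 20.9. Lep averaged 73.7 ± 30.1, Pparg 52.3 ± 9.36, Serpina3c 23.3 ± 2.71 and Cebpd 20.9 ± 7.13. Cfd exceeded Adipoq, Adipoq exceeded Cebpa, and Pparg exceeded Serpina3c in 20 of 20 controls. Cebpb against Rbp4, Rbp4 against Lep and Lep against Pparg held their order in 16 of 20 each, and Serpina3c against Cebpd in 14, so these neighbours lie within the spread of single glands. Cfd was among the most abundant transcripts of the gland, with rank 15 to 18 of all genes by group mean in control and estrogen groups.

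In the CLA groups the order shifted. Cfd had rank 25 at 108 h and 39 at 132 h, against 16 and 15 in controls of those times, and Adipoq rank 78 and 97 against 35 in both control groups. Cebpb stood above Retn by mean RPKM in the CLA groups, in 4 of 5 glands at 108 h and 5 of 5 at 132 h, whereas Retn stood above Cebpb in 19 of 20 controls. Serpina3c, at 10.0 ± 1.18 and 8.74 ± 2.05 RPKM in the CLA groups, was the lowest of the 10 there. Together the 10 genes took 0.347% ± 0.0712 of all counts in CLA glands at 108 h against 0.768% ± 0.0695 of those in controls, and 0.286% ± 0.0627 at 132 h against 0.8095% ± 0.0856 in controls (SD, n = 5 each). In estrogen glands they took 0.716% ± 0.107 at 60 h against 0.729% ± 0.0838 in controls, and 0.698% ± 0.101 at 84 h against 0.763% ± 0.0885 in controls.

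**Figure D1:**
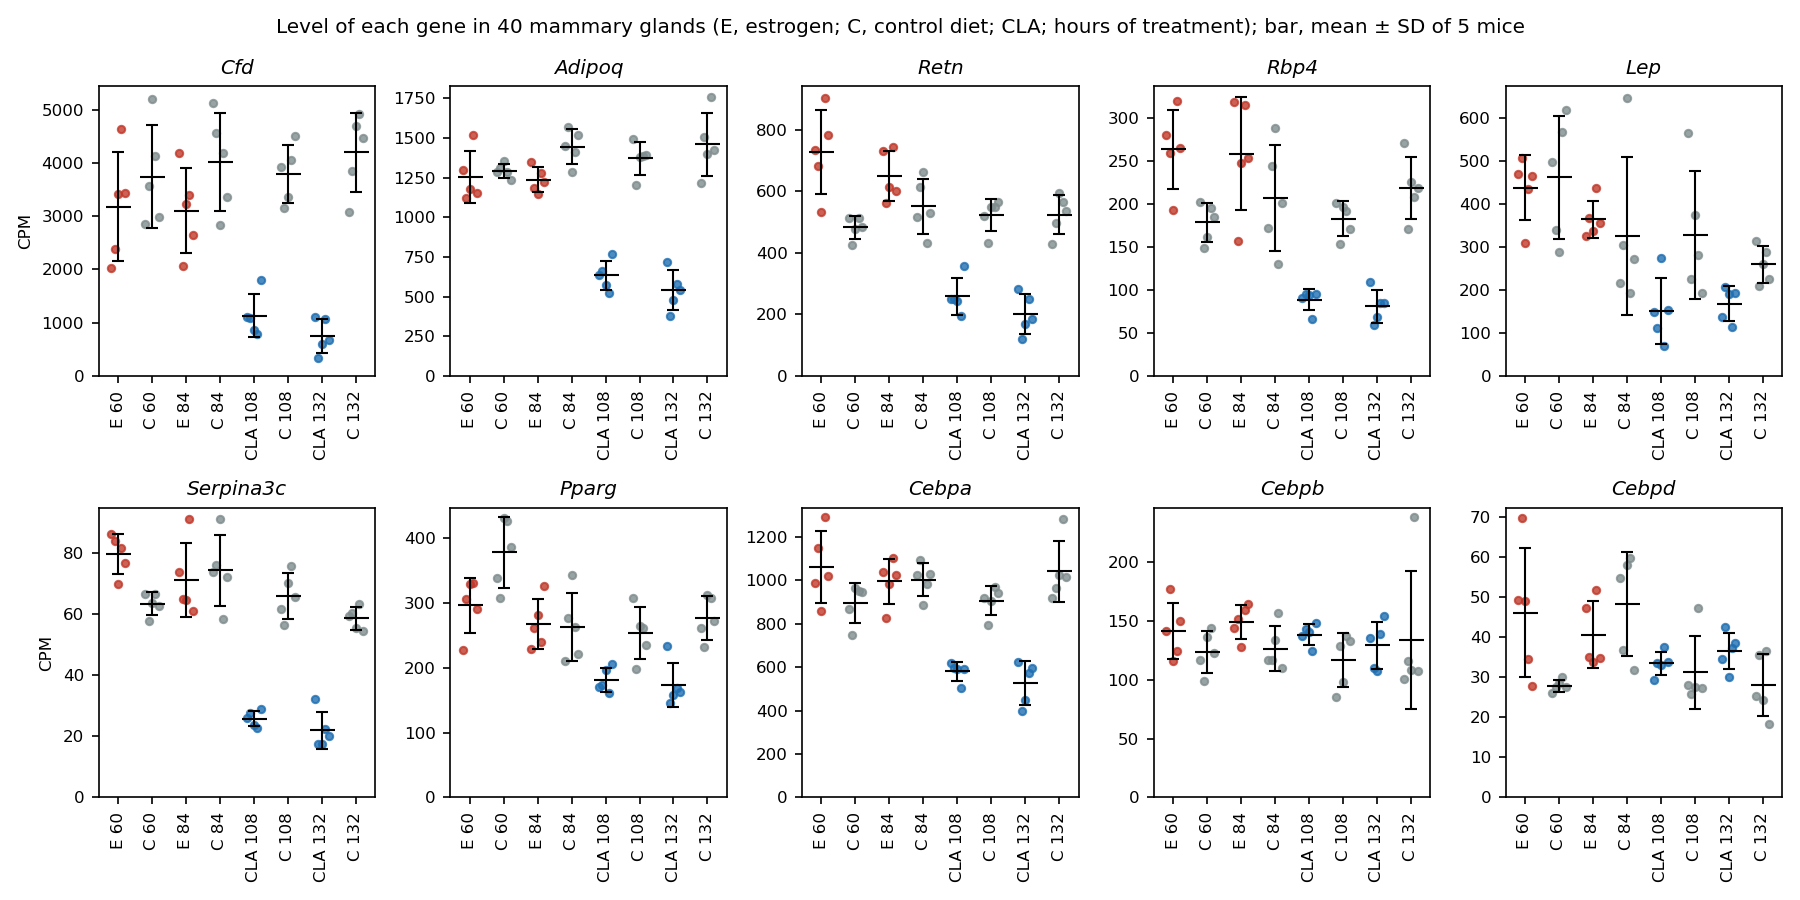
Level of each of the 10 genes in every library, in CPM (counts per 1e+06 counts of the library, scaled by TMM, the trimmed mean of M values; linear axes from 0), with points for single mice and bars for the mean ± SD of 5. The CLA glands lie below every control of their time for Cfd, Adipoq, Retn, Rbp4, Serpina3c and Cebpa, while for Cebpb and Cebpd the groups overlap. The share of all genes without overlap between treated and control glands was not determined. The statements on overlap in the text therefore describe single genes and have no share of all genes to be set against.

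CLA glands at 108 h had lower RNA of all 6 secreted products and of Pparg and Cebpa than control glands: 8 of the 10 genes fell and 0 rose. That direction held for each of the 8 with RLE and upper-quartile scaling, and turned for some of them only when Adipoq itself was the scale (given further on). Over all 17248 genes tested, 23.0% were lower and 24.9% higher (47.9% in either direction). At 132 h the count was again 8 lower and 0 higher, with 29.0% of 17180 genes lower and 27.0% higher (56.0% in either direction). The count at 132 h was 7 lower with no filter on low counts and without the libraries with a strong skin signal. With limma on RPKM it was 7 lower and 1 higher. The median log2 fold change of the 10 genes was -1.03 at 108 h and -1.18 at 132 h, against -0.01 and -0.03 over all genes. These are edgeR quasi-likelihood tests with Benjamini-Hochberg adjustment over all genes, at a threshold of 0.05, and every adjusted p below is from them. In whole tissue, fewer fat cells and less RNA per fat cell cannot be told apart.

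Cfd fell furthest. Its levels were 790, 854, 1095, 1109 and 1806 CPM in CLA glands at 108 h, against 3161, 3356, 3921, 4048 and 4502 CPM in controls. The highest CLA gland was below the lowest control. At 132 h the values were 339, 603, 673, 1061 and 1101 CPM with CLA, against 3085, 3854, 4472, 4699 and 4913 CPM in controls. The log2 fold change was -1.75 ± 0.24 at 108 h (SE, adjusted p = 8.7e-06) and -2.48 ± 0.27 at 132 h (adjusted p = 3.6e-07).

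Adipoq measured 526, 574, 639.6, 662 and 768 CPM in CLA glands at 108 h, against 1206, 1380, 1389, 1392 and 1495 CPM in controls. At 132 h it measured 381, 477, 545, 581 and 718 CPM with CLA, against 1214, 1399, 1427, 1508 and 1759 CPM in controls. The groups did not overlap at either time, and the log2 fold change was -1.11 ± 0.10 (adjusted p = 3.0e-08) and -1.44 ± 0.13 (adjusted p = 2.4e-08).

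Serpina3c at 108 h had 22.8 to 29.0 CPM in CLA glands (median 26.1) against 56.5 to 75.8 CPM in controls (median 65.8). At 132 h it had 17.6 to 32.2 CPM with CLA (median 20.2) against 54.5 to 63.4 CPM in controls (median 59.5). No CLA gland reached the lowest control. Its log2 fold change was -1.35 ± 0.08 (adjusted p = 4.6e-10) and -1.42 ± 0.15 (adjusted p = 2.6e-07). The Serpina3 genes are a cluster of close copies, and how shared reads were counted is not given in the sources used here, which makes Serpina3c less certain than the other secreted products.

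Retn averaged 259 ± 59.8 CPM in CLA glands at 108 h and 523 ± 52.6 in controls, and 201 ± 65.8 CPM with CLA at 132 h and 524 ± 64.8 in controls (SD, n = 5 each). The log2 fold change was -1.01 ± 0.14 (adjusted p = 7.2e-06) and -1.38 ± 0.18 (adjusted p = 2.8e-06), with no overlap of the groups. Rbp4 averaged 88.8 ± 12.5 CPM with CLA at 108 h and 183 ± 19.96 in controls, and 81.3 ± 19.1 CPM with CLA at 132 h and 219 ± 36.2 in controls. Its log2 fold change was -1.04 ± 0.13 (adjusted p = 1.7e-06) and -1.43 ± 0.22 (adjusted p = 2.3e-05), again without overlap.

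At 108 h Lep had the highest coefficient of variation of the 10 genes in CLA glands (50.4%) and in controls (45.6%). Its levels were 70.1, 111, 149.5, 153.5 and 275 CPM in CLA glands at 108 h, against 194, 226, 281, 373 and 566 CPM in controls. One CLA gland was above 2 controls. At 132 h Lep had 114, 136, 190.3, 193 and 207 CPM with CLA, against 209, 224, 261, 288 and 315 CPM in controls, and the groups met without overlapping. The log2 fold change was -1.11 ± 0.33 at 108 h (adjusted p = 0.011) and -0.63 ± 0.26 at 132 h (adjusted p = 0.049). The call at 132 h was lost in 8 of 10 fits that left out 1 library, all but those without CLA replicate 2 or control replicate 2, where the adjusted p went up to 0.117, and the fold change lay between -0.71 and -0.51 in all 10.

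Of the transcription factors, Cebpa fell by 0.64 ± 0.10 on the log2 scale at 108 h (adjusted p = 2.4e-05) and by 0.98 ± 0.12 at 132 h (adjusted p = 1.3e-06). It had 505 to 621 CPM with CLA at 108 h (median 591) against 795 to 969 CPM in controls (median 919.8). At 132 h it had 397 to 624 CPM with CLA (median 574) against 919 to 1282 CPM in controls (median 1016), and the groups did not overlap at either time. Pparg had 162, 171, 174, 196 and 206 CPM with CLA at 108 h, against 199, 235, 262, 265 and 308 CPM in controls, so 1 CLA gland was above the lowest control. At 132 h Pparg had 147, 159, 162, 169 and 234 CPM with CLA, against 233, 261, 272, 308 and 313 CPM in controls, where the highest CLA gland was just above the lowest control. Its log2 fold change was -0.48 ± 0.12 (adjusted p = 0.0029) and -0.67 ± 0.14 (adjusted p = 0.00047), the smallest among the genes called at 108 h.

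Cebpb and Cebpd were not called with CLA. Cebpb had 124, 137, 141, 143 and 148 CPM with CLA at 108 h, against 85.7, 98.5, 129, 133.5 and 137 CPM in controls, a log2 fold change of 0.25 ± 0.13 (adjusted p = 0.13). At 132 h it had 108, 109.9, 136, 139 and 154 CPM with CLA, against 101, 107.5, 108, 116 and 238.5 CPM in controls, a log2 fold change of -0.05 ± 0.19 (adjusted p = 0.84). Control replicate 4 at 132 h stood far above the other 4, and without it the log2 fold change turned to 0.26 (adjusted p = 0.062). Cebpd had 29.3 to 37.6 CPM with CLA at 108 h (median 33.6) against 25.8 to 47.3 in controls (median 27.7), and 30.2 to 42.5 CPM with CLA at 132 h (median 37.3) against 18.4 to 36.7 in controls (median 25.3). Its log2 fold change was 0.10 ± 0.20 (adjusted p = 0.71) and 0.38 ± 0.20 (adjusted p = 0.11). The limma fit to log2(RPKM + 0.1) called Cebpd higher at 132 h, at 0.58 (adjusted p = 0.024).

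The balance between the 2 C/EBP genes can be read within a gland. The RPKM of Cebpb divided by that of Cebpa was 0.858 ± 0.0542 in CLA glands at 108 h (range 0.769 to 0.910) and 0.492 ± 0.107 in controls (0.347 to 0.605). At 132 h it was 0.910 ± 0.103 with CLA (0.786 to 1.06) and 0.486 ± 0.135 in controls (0.392 to 0.722). No CLA gland overlapped a control of its time. In estrogen glands the ratio was 0.535 ± 0.0904 at 60 h against 0.538 ± 0.0431 in controls, and 0.597 ± 0.0796 at 84 h against 0.509 ± 0.115 in controls. These ratios were not tested, and of the 2 genes only Cebpa was called with CLA.

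Pparg, Cebpa, Cebpb and Cebpd each overlap a gene on the opposite strand in the GENCODE M21 annotation of GRCm38, and whether counting used the strand is not given in the sources used here. The overlap is 908 bases with Tmem189 for Cebpb, 1808 bases with Spidr for Cebpd, 313 bases with Gm45091 for Cebpa and 13176 bases with Gm44079 for Pparg. Spidr averaged 25.6 ± 1.07 CPM with CLA at 108 h and 21.8 ± 1.26 in its controls, then 25.9 ± 1.39 CPM with CLA at 132 h against 20.6 ± 1.38 in controls, so it is close to Cebpd in level. Gm44079 was listed at 0 in all groups. The 6 secreted-product genes overlap no annotated gene.

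Markers of other cells moved in the same comparisons. At 108 h 8 of 10 fat-cell markers were lower, with a summed level of 23270 to 28760 CPM in CLA glands against 33250 to 40690 CPM in controls. At 132 h 8 of 10 were again lower, with 18720 to 28780 CPM with CLA against 31100 to 45260 CPM in controls. All 13 macrophage markers in the tables, of 14 listed, were higher at both times, with 3268 to 4957 CPM with CLA at 108 h against 1009 to 1880 CPM in controls, and 3319 to 6929 CPM with CLA at 132 h against 696 to 1214 CPM in controls. All 7 endothelial markers were lower at 108 h and 6 of 7 at 132 h. Of 10 fibroblast and preadipocyte markers, 3 were higher and 2 lower at 108 h, and 6 higher and 1 lower at 132 h. The skin and hair markers were lower in 14 of 16 tested at 108 h and 18 of 18 at 132 h. Brown-fat markers were lower in 4 of 7 and 3 of 7. Basal epithelial markers were lower in 3 of 6 and 4 of 6, and skeletal muscle markers in 6 of 9 and 1 of 10. Luminal epithelial markers had 0 and 1 of 8 higher, and lymphocyte markers 2 of 10 higher, then 1 of 9 lower. Over all genes 47.9% and 56.0% were called in either direction, 23.0% and 29.0% lower and 24.9% and 27.0% higher. The fibroblast and preadipocyte list had 50% and 70% called. The part of any of these signals in the fall of the 8 genes was not tested.

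The skin signal and the run of animal numbers were each taken out of the comparison, but not both together. Leaving out the libraries with a strong skin signal left 2 controls and 5 CLA glands at each time, and no control of run 1. The run 1 controls in the comparisons within runs all carried a strong skin signal. Without the libraries with a strong skin signal, all 8 genes were still called lower at 108 h, Adipoq with a log2 fold change of -1.13 and Cfd with -1.72. At 132 h 7 were, Adipoq with -1.56 and Cfd with -2.64, and Lep at -0.61 was not called (adjusted p = 0.24). Within the 2 runs that hold both groups at 108 h and the 3 at 132 h, the difference of mean log2 CPM was negative for each of the 8 genes in every run. For Lep it was -1.10 and -1.39 in the runs at 108 h, and those at 132 h gave -0.55, -1.27 and -0.22, the last from 1 CLA and 1 control gland. Cebpb had 0.41 and 0.16 at 108 h, and 0.11, -0.21 and 0.52 at 132 h.

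**Figure D2:**
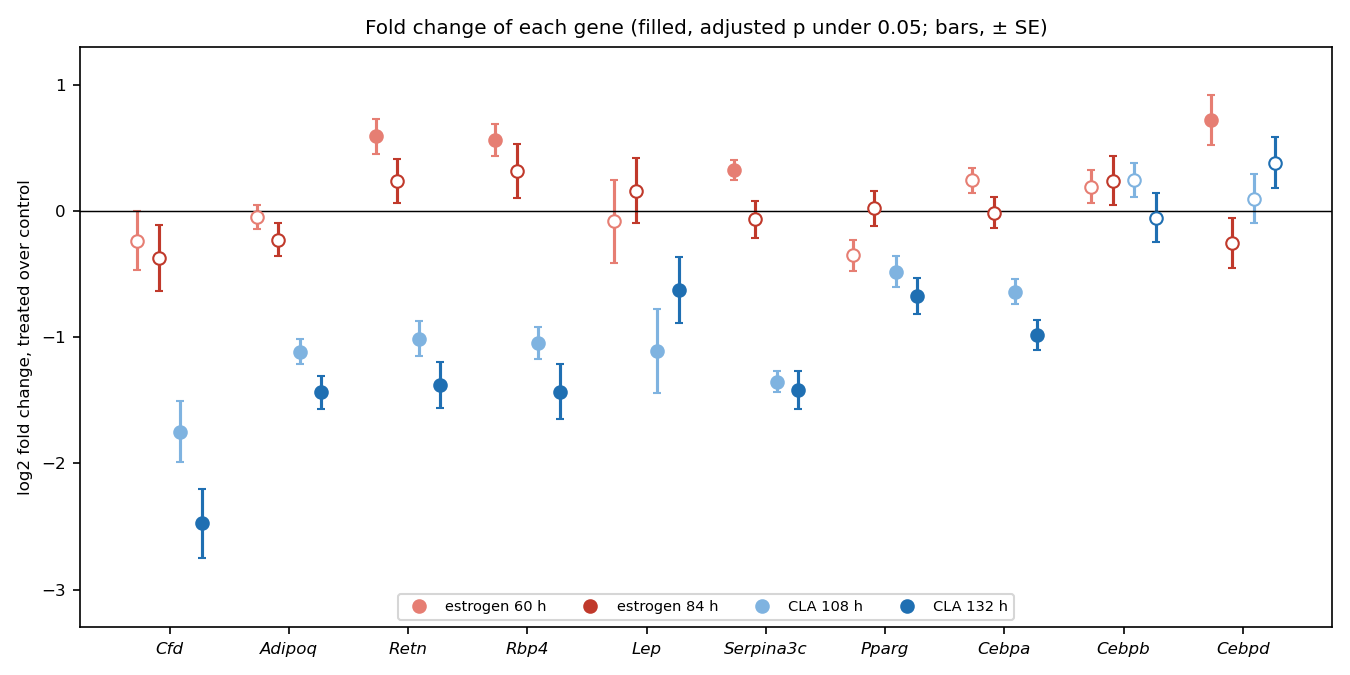
Log2 fold change of the 10 genes (treated over control, points ± SE derived from the edgeR F statistic) in the 4 comparisons, filled where the adjusted p is under 0.05. The CLA points of 8 genes lie below 0, from -0.48 for Pparg to -2.48 for Cfd, and the filled estrogen points are the 4 above 0 at 60 h.

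The effect of CLA did not differ detectably between 132 h and 108 h for any of the 10 genes. The largest differences (132 h minus 108 h, log2) were -0.72 ± 0.36 for Cfd (adjusted p = 0.41), 0.49 ± 0.43 for Lep (adjusted p = 0.68) and -0.37 ± 0.26 for Rbp4 (adjusted p = 0.58). The smallest p was that of Cebpa, at -0.33 ± 0.16 (adjusted p = 0.38, unadjusted p = 0.041). Of 17852 genes tested, 0% were called in that contrast by edgeR (0 genes, 2216 at an unadjusted p under 0.05) and 5 by limma on RPKM. The 2 times come from separately deposited tables, so table and time cannot be told apart.

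Whether the secreted products fell together was examined by dividing each library by its own Adipoq count, which turns each fold change into that of the ratio to Adipoq. On this scale the median of all genes moved to 1.12 at 108 h and 1.45 at 132 h, since Adipoq itself fell, and 87.3% and 88.0% of genes were called higher (88.2% and 89.8% in either direction). A gene near 0 fell as far as Adipoq. Retn was at 0.09 ± 0.11 at 108 h and 0.02 ± 0.13 at 132 h, and Rbp4 at 0.08 ± 0.11 and -0.03 ± 0.21, none of them called (adjusted p from 0.42 to 0.88). Serpina3c was called lower than Adipoq at 108 h, at -0.23 ± 0.10 (adjusted p = 0.030), and not at 132 h, at 0.01 ± 0.14 (adjusted p = 0.97).

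Cfd fell beyond Adipoq at both times, by 0.66 ± 0.18 on the log2 scale at 108 h (adjusted p = 0.0014) and by 1.09 ± 0.18 at 132 h (adjusted p = 5.0e-06). Only 0.870% of genes were called lower relative to Adipoq at 108 h, and 1.79% at 132 h. The RPKM of Cfd was 2.68 ± 0.554 times that of Adipoq in CLA glands at 108 h and 4.27 ± 0.492 times in controls, and 2.07 ± 0.539 times at 132 h and 4.43 ± 0.579 times in controls (SD, n = 5 each). Pparg (0.65 ± 0.13 and 0.77 ± 0.16) and Cebpa (0.49 ± 0.11 and 0.47 ± 0.10) were called higher relative to Adipoq, that is, they fell less than Adipoq did. Lep was at 0.04 ± 0.34 at 108 h (adjusted p = 0.90) and was called higher at 132 h, at 0.89 ± 0.34 (adjusted p = 0.021). Cebpb (1.36 ± 0.17 and 1.45 ± 0.17) and Cebpd (1.24 ± 0.23 and 1.90 ± 0.23) were furthest above Adipoq.

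**Figure D3:**
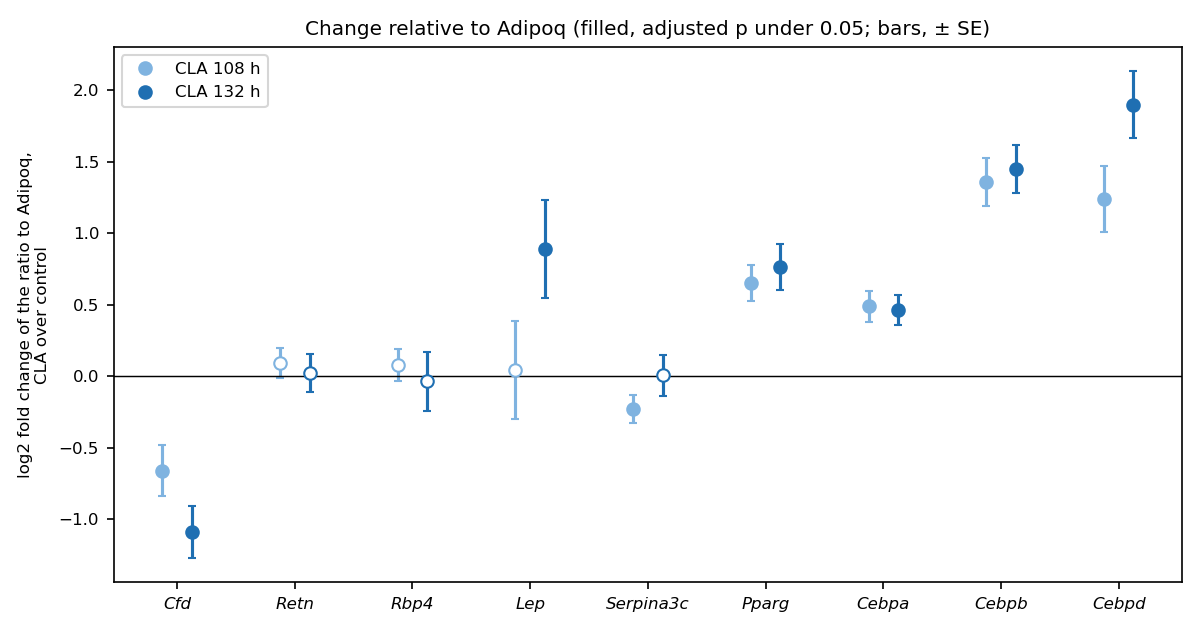
Log2 fold change (CLA over control, ± SE) of the ratio of 9 genes to Adipoq at 108 h and 132 h, filled where the adjusted p is under 0.05. Retn and Rbp4 lie near 0, Cfd lies at -0.66 and -1.09, and the 4 transcription factors lie above 0. The median of all genes also lies above 0 on this scale, at 1.12 at 108 h and 1.45 at 132 h.

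Fewer of the 10 genes were called with estrogen, and those called were higher. All estrogen mice lie in a run of animal numbers without controls, so run and estrogen cannot be told apart in these comparisons. At 60 h Retn, Rbp4, Serpina3c and Cebpd rose and 0 fell, where 4.07% of 17248 genes were called higher and 2.42% lower (6.49% in either direction). At 84 h 0 of the 10 were called by edgeR, 0 had an unadjusted p under 0.05, and 0 were called by DESeq2 or by limma on RPKM, where edgeR called 3.45% of 17180 genes higher and 1.97% lower (5.42% in all). The median log2 fold change of the 10 genes was 0.22 at 60 h and 0.00 at 84 h.

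Retn had 533, 681, 735, 781 and 902 CPM in estrogen glands at 60 h, against 425, 476.5, 483, 513 and 514 CPM in controls. Every estrogen gland was above every control, with a log2 fold change of 0.59 ± 0.14 (adjusted p = 0.020). At 84 h it had 561 to 744 CPM with estrogen (median 612) against 431 to 661 CPM in controls (median 529.5), with a log2 fold change of 0.24 ± 0.18 (adjusted p = 0.48). Without the libraries with a strong skin signal the 60 h value was 0.56 (adjusted p = 0.060), and without estrogen replicate 1 the adjusted p was 0.051.

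Rbp4 had 193.5, 259, 266, 281 and 321 CPM in estrogen glands at 60 h, against 149, 162, 185, 195 and 202 CPM in controls. With 1 estrogen gland within the range of the controls, the log2 fold change was 0.56 ± 0.12 (adjusted p = 0.015), and the gene was called in all 10 fits that left out 1 library. At 84 h it was 0.32 ± 0.22 (adjusted p = 0.43), with 157 to 319 CPM with estrogen against 131 to 289 CPM in controls.

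Serpina3c had 69.98, 76.7, 81.7, 84.2 and 86.3 CPM in estrogen glands at 60 h, against 57.95, 62.6, 63.6, 66.8 and 66.8 CPM in controls. The groups did not overlap, and the log2 fold change was 0.33 ± 0.08 (adjusted p = 0.024). Leaving out control replicate 2 took the adjusted p to 0.055, and leaving out estrogen replicate 1 took it to 0.071, so neither fit called the gene. At 84 h the log2 fold change was -0.06 ± 0.15 (adjusted p = 0.85).

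Cebpd had 27.9, 34.6, 48.97, 49.4 and 69.8 CPM in estrogen glands at 60 h, against 26.1, 27.5, 27.5, 28.7 and 30.1 CPM in controls. The controls were close together and 1 estrogen gland lay among them. The log2 fold change was 0.72 ± 0.20 (adjusted p = 0.037), and this call was lost in 8 of 10 fits that left out 1 library (adjusted p up to 0.088), all but those without estrogen replicate 4 or 5. At 84 h the levels were 33.8, 34.95, 35.1, 47.4 and 51.9 CPM with estrogen, against 31.9, 36.8, 54.9, 58.1 and 59.9 CPM in controls, and the log2 fold change was -0.25 ± 0.20 (adjusted p = 0.51). The difference between the 2 times was -0.98 ± 0.29 (84 h minus 60 h), which was not called (adjusted p = 0.63). In that contrast 1 gene in all was called, and it was lower (0.00560% of 17852).

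Pparg, in contrast, had 227, 291, 306, 329 and 331 CPM in estrogen glands at 60 h, against 308, 338.5, 387, 427 and 432 CPM in controls. No estrogen gland reached the control mean, but the groups overlapped and the gene was not called at -0.35 ± 0.12 (adjusted p = 0.085). DESeq2 called it lower (adjusted p = 0.044). Cebpa was at 0.24 ± 0.10 at 60 h (adjusted p = 0.14) and Cebpb at 0.19 ± 0.13 (adjusted p = 0.41). Adipoq was at -0.05 ± 0.10 at 60 h (adjusted p = 0.83) and -0.23 ± 0.13 at 84 h (adjusted p = 0.32), Lep at -0.08 ± 0.33 and 0.16 ± 0.26 (adjusted p = 0.92 and 0.77), and Cfd at -0.24 ± 0.23 and -0.37 ± 0.26 (adjusted p = 0.60 and 0.45). Without control replicate 3 at 84 h, the gland with the highest Lep level of its group, Lep was at 0.58 there (adjusted p = 0.055).

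Relative to Adipoq, where 1.36% of genes were called higher and 1.63% in either direction, Retn (0.64 ± 0.11), Rbp4 (0.60 ± 0.11) and Serpina3c (0.39 ± 0.10, adjusted p = 0.044) were higher at 60 h, and Cebpd was at 0.80 ± 0.23 without a call (adjusted p = 0.079). At 84 h 0 of the other 9 genes were called on this scale by edgeR, where 2.67% of genes were (2.56% higher), with 4 of them at an unadjusted p under 0.05 (Retn, Rbp4, Cebpa and Cebpb). Fat-cell markers as a list did not move with the 4 genes at 60 h: 0 of 10 were called, with a summed level of 35750 to 43690 CPM in estrogen glands against 33670 to 40110 CPM in controls. Luminal epithelial markers were higher in 6 of 8 at 60 h, with 147 to 399 CPM with estrogen against 7.86 to 96.6 CPM in controls, and in 4 of 8 at 84 h. Basal epithelial markers were higher in 1 of 6 at 60 h, and their summed level of 252.5 to 421 CPM with estrogen did not overlap the 133 to 212 CPM in controls. Endothelial markers were lower in 1 of 7, with 1268 to 1488 CPM with estrogen against 1491 to 1810 CPM in controls. At 60 h the luminal, basal and endothelial lists had 75%, 16.7% and 14.3% called, against 6.49% of all genes in either direction. At 84 h the luminal list had 50%, against 5.42%. The part of these 3 lists in the rise of the 4 genes was not tested.

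The effect of CLA at 108 h and that of estrogen at 60 h were set against each other in 1 test, each relative to its own controls, at times that differ. The estrogen mice share a run of animal numbers that holds no control, so run and estrogen cannot be told apart in such a test. Of the 10 genes, 6 were lower under CLA relative to estrogen, where 14.9% of genes were called lower, 17.2% higher and 32.1% in either direction. The differences (CLA minus estrogen, log2) were -1.68 ± 0.11 for Serpina3c, -1.61 ± 0.18 for Rbp4, -1.60 ± 0.20 for Retn, -1.51 ± 0.33 for Cfd, -1.07 ± 0.14 for Adipoq and -0.88 ± 0.14 for Cebpa (adjusted p from 1.6e-08 to 0.0023). Lep (-1.03 ± 0.47, adjusted p = 0.10), Cebpd (-0.62 ± 0.28, adjusted p = 0.094), Pparg (-0.13 ± 0.17, adjusted p = 0.60) and Cebpb (0.05 ± 0.19, adjusted p = 0.86) were not called. Lep was called without CLA replicate 3 (-1.36, adjusted p = 0.025), and Cebpd without estrogen replicate 5 (-0.76, adjusted p = 0.026). Between CLA at 132 h and estrogen at 84 h, 7 genes were lower, where 18.9% of genes were and 38.0% were called in either direction: these 6 and Pparg, at -0.69 ± 0.20 (adjusted p = 0.0096). Cfd was at -2.11 ± 0.37 and Rbp4 at -1.75 ± 0.31 there. Lep was called too without control replicate 3 of 84 h (-1.19, adjusted p = 0.00091). Cebpd was called higher without control replicate 4 of 132 h (0.75, adjusted p = 0.048) or control replicate 5 of 84 h (0.75, adjusted p = 0.035).

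The control glands of the 4 times were also compared with one another. Most controls at 60 h came from run 2 of the animal numbers, which held no control at 108 h. The times also came from 2 separately deposited tables, so time cannot be fully told apart from run and table. Of the 10 genes, 2 differed among the control groups, where 13.4% of 17852 genes did. Pparg averaged 378.5 ± 54.5 CPM at 60 h, 264 ± 52.7 at 84 h, 254 ± 40.1 at 108 h and 277 ± 33.6 at 132 h (adjusted p = 0.0096). Cebpd averaged 27.95 ± 1.49, 48.3 ± 13.0, 31.2 ± 9.04 and 28.1 ± 7.82 CPM at those times (adjusted p = 0.012). Without the libraries with a strong skin signal, 7 genes in all and 0 of the 10 differed. Lep averaged 462 ± 143, 326 ± 184, 328 ± 149.5 and 259.6 ± 43.7 CPM from 60 h to 132 h and was not called (adjusted p = 0.21).

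The other genes of the pathway were taken from lists. Of 24 tested targets of Pparg and the C/EBPs, 20 were lower and 0 higher with CLA at 108 h (median log2 fold change -0.76), and 21 lower and 0 higher at 132 h (median -1.10). The shares called lower were 83.3% and 87.5%, against 23.0% and 29.0% of all genes. The list overlaps the fat-cell markers. Car3, carbonic anhydrase 3 of fat and muscle, was at -1.24 ± 0.12 at 108 h and -1.46 ± 0.17 at 132 h. Pnpla2, the first lipase of triglyceride breakdown, was at -0.78 ± 0.08 and -1.18 ± 0.12. Plin1, which coats the lipid droplet, was at -0.76 ± 0.09 and -1.03 ± 0.12, and Plin4, another perilipin, at -0.91 ± 0.11 and -1.41 ± 0.15. Each of these 4 genes was called at both times, with adjusted p of at most 2.3e-06. Estrogen glands at 60 h had 1 target higher and 1 lower, and at 84 h edgeR called 0, with 4 at an unadjusted p under 0.05.

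Of 36 other regulators of fat-cell differentiation, 16 were lower and 3 higher with CLA at 108 h, and 18 lower and 3 higher at 132 h. The shares called in either direction, 52.8% and 58.3%, are near the 47.9% and 56.0% of all genes, while 44.4% and 50% were lower, against 23.0% and 29.0%. Klf15, a factor that promotes differentiation, was at -1.37 ± 0.17 and -1.80 ± 0.18. Dlk1, a preadipocyte protein that holds differentiation back, was at -1.01 ± 0.17 and -1.08 ± 0.11. The 3 genes called higher, at 108 h as at 132 h, were E2f1, a cell-cycle factor, at 1.27 ± 0.13 and 1.32 ± 0.09, Ddit3, the stress-induced C/EBP relative CHOP, at 0.88 ± 0.12 and 0.80 ± 0.13, and Egr2 (also Krox20) at 2.99 ± 0.41 and 2.80 ± 0.34. Egr2 was named after its values were seen. With estrogen 2 were higher and 2 lower at 60 h, and 1 higher and 3 lower at 84 h (11.1% in either direction at both times, against 6.49% and 5.42% of all genes).

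Other secreted fat-cell products did not share a direction. Of 30 tested, 6 were higher and 12 lower with CLA at 108 h, and 12 higher and 7 lower at 132 h. That is 60.0% and 63.3% in either direction, against 47.9% and 56.0% of all genes. Gdf15, a stress-induced hormone of the TGF-beta family, was at 4.70 ± 0.40 and 5.41 ± 0.31, and Fgf21, a metabolic hormone, at 4.15 ± 0.43 and 4.07 ± 0.60. Metrnl, a secreted meteorin relative, was at 1.68 ± 0.16 and 1.98 ± 0.13. Vegfa, the angiogenic factor, was at -0.78 ± 0.13 and -1.16 ± 0.10. In estrogen glands 1 of the 30 was lower at 60 h and 2 were lower at 84 h, with 0 higher (3.33% and 6.67%, against 6.49% and 5.42% of all genes).

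Among 13 tested receptors and binding partners of the secreted products, 7 were higher and 4 lower with CLA at 108 h, and 6 higher and 5 lower at 132 h. Called in either direction were 84.6% at both times, against 47.9% and 56.0% of all genes. Cap1, a cytoskeletal protein described as a resistin-binding partner in human cells, was at 0.81 ± 0.08 and 0.91 ± 0.08. The complement receptors C3ar1 (2.45 ± 0.34 and 3.55 ± 0.25) and C5ar1 (1.52 ± 0.24 and 2.15 ± 0.18) were also higher. Cdh13, which binds adiponectin on vessels and muscle, was at -0.66 ± 0.09 and -0.92 ± 0.08. With estrogen 0 of 13 were called at either time by edgeR, with 1 at 60 h and 3 at 84 h at an unadjusted p under 0.05. The macrophage markers described above moved with the complement receptors, and their part was not tested.

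Of 19 acute-phase and cytokine genes tested, 7 were higher and 4 lower with CLA at 108 h, and 8 higher and 4 lower at 132 h. Their shares in either direction were 57.9% and 63.2%, against 47.9% and 56.0% of all genes. Orm2 (1.80 ± 0.30 and 1.39 ± 0.29) and Orm3 (-1.89 ± 0.27 and -2.51 ± 0.23), neighbours that encode acute-phase orosomucoids, moved in opposite directions. Il1r1, the interleukin 1 receptor, was at 0.68 ± 0.07 and 0.84 ± 0.09, and Cp, ceruloplasmin, at -0.41 ± 0.09 and -0.75 ± 0.09. With estrogen 3 were higher and 1 lower at 60 h, and 1 higher at 84 h (21.1% and 5.26%, against 6.49% and 5.42% of all genes).

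In the Serpina3 cluster, where 8 of 11 genes were tested, Serpina3c and Serpina3b were the 2 that fell with CLA at both times. That is 25% lower at each time, near the 23.0% and 29.0% of all genes. Called in either direction were 62.5% at 108 h and 25% at 132 h, against 47.9% and 56.0% of all genes. Serpina3b was at -3.26 ± 0.84 and -3.85 ± 0.97, but without the libraries with a strong skin signal it was at -0.25 at 108 h (adjusted p = 0.73) and -1.39 at 132 h (adjusted p = 0.062). Serpina3g (0.82 ± 0.19), Serpina3h (0.89 ± 0.29) and Serpina3i (1.15 ± 0.37) rose at 108 h and were not called at 132 h. Serpina3h lost its call without CLA replicate 1 (adjusted p = 0.051), and Serpina3i was called at 132 h without control replicate 1 (1.51, adjusted p = 0.0023). Serpina3f (0.12 ± 0.21 and 0.09 ± 0.19), Serpina3m (0.05 ± 0.20 and -0.49 ± 0.32) and Serpina3n (0.16 ± 0.21 and 0.17 ± 0.13) were called at neither time. With estrogen at 60 h Serpina3m (0.79 ± 0.20) rose together with Serpina3c (25% called, against 6.49% of all genes). That call of Serpina3m was lost without any 1 of control replicates 1, 3, 4 and 5 or estrogen replicates 1, 2 and 5 (adjusted p from 0.051 to 0.079).

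**Figure D4:**
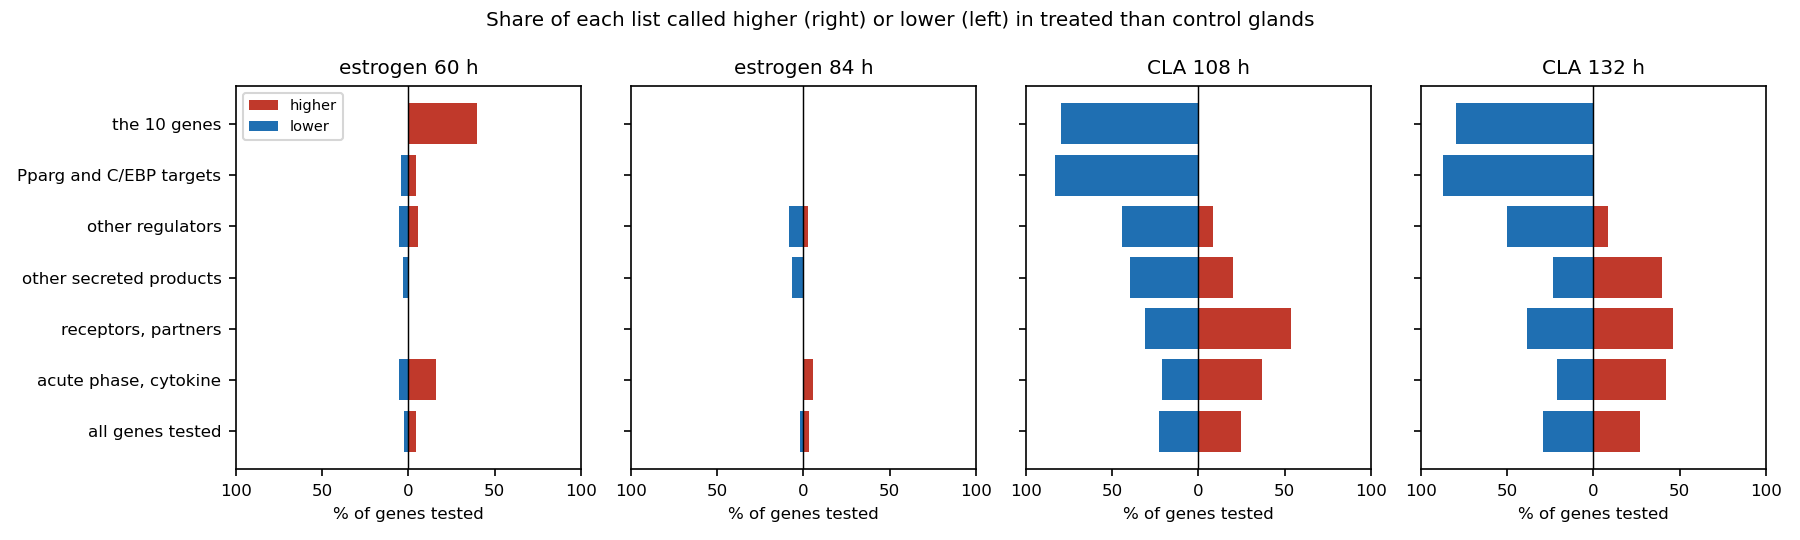
Share of the genes tested in each list that were called higher (right, red) or lower (left, blue) in treated than in control glands, for the 4 comparisons, with all genes tested in the bottom row. With CLA the 10 genes and the Pparg and C/EBP targets have bars to the left alone, while the other lists have bars on both sides.

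Within groups, some of the 10 genes varied together from mouse to mouse. Deviations of log2 CPM from the group mean were correlated over the 40 libraries, which share no mice but include those with a strong skin signal. These are descriptions with no test. Adipoq varied with Cfd (Pearson's r = 0.77, Spearman's rho = 0.65), Retn (0.76 and 0.62) and Cebpa (0.73 and 0.65). Retn varied with Serpina3c (0.76 and 0.73) and Rbp4 (0.73 and 0.72). Without the 2 libraries farthest from the median on the first gene, r was 0.67, 0.63, 0.64, 0.69 and 0.68 for these 5 pairs.

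Lep stood apart, at -0.12 with Adipoq, -0.34 with Cfd and 0.48 with Rbp4. Cebpd was at 0.44 with Cebpb, at 0.27 with Serpina3c and between -0.10 and 0.06 with the other 7. Pparg had no r above 0.43 with any of the others. These values are of differences between glands of one group, so the mean effect of CLA does not enter them. A response to CLA that differs between mice does enter them, and its part was not tested.

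**Figure D5:**
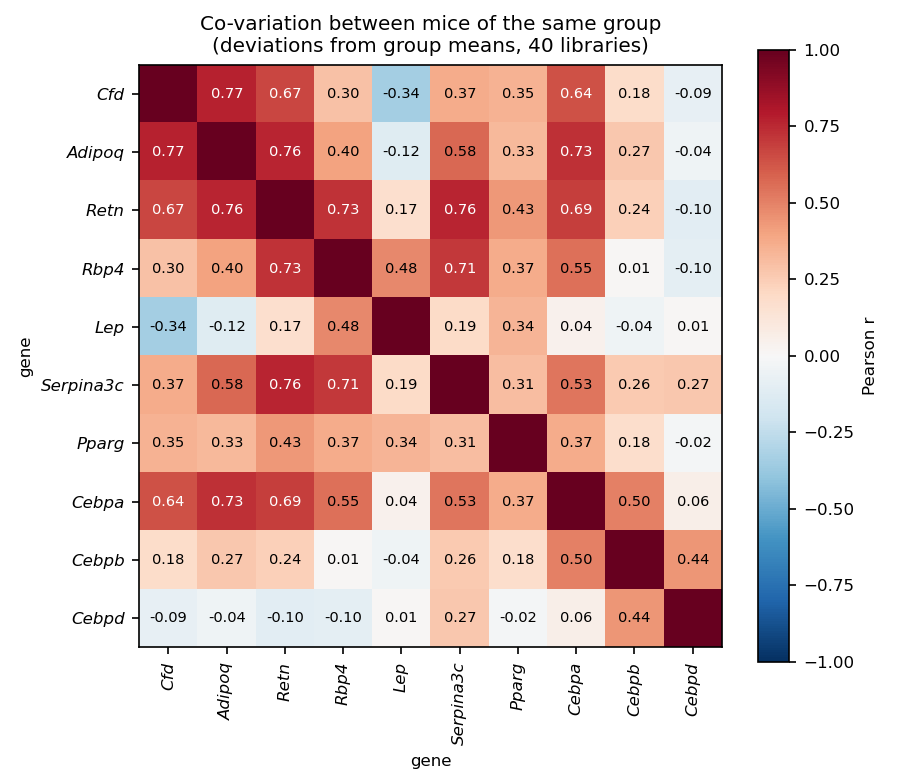
Pearson's r between deviations of log2 CPM from the group mean for each pair of the 10 genes over 40 libraries (red, positive; blue, negative). Adipoq, Cfd, Retn and Cebpa have r of 0.64 to 0.77 with one another, and the rows of Lep and Cebpd are pale against those genes.

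Among 12706 genes ranked by the same measure, those most like Adipoq were Car3 (r = 0.90), Pla2g16 (0.85) and Proca1 (0.85). Those most like Cebpa were Lipe (0.85), which encodes hormone-sensitive lipase, Mknk2 (0.81) and Akt2 (0.81). Those most like Cebpd were Errfi1 (0.84), Rhob (0.79) and Sgk1 (0.78). Those most like Lep were Rbm28 (0.87), Fads3 (0.79) and Npr3 (0.79). Rbm28 lies 49698 bases from Lep on chromosome 6 on the opposite strand, with 1 gene wholly between them, and averaged 70.7 ± 8.92 CPM with CLA at 108 h against 72.3 ± 9.66 in controls.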

How the data were processed

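RNA was measured in 40 mammary glands, 5 mice in each of 8 groups. Stranded poly(A) libraries came from RNA of quality 7.5 to 9.4 (mean 8.7), with 10 PCR cycles and 4 lanes, per the labels' protocols. The build was GRCm38 per the submitters' processing notes, and no source used here gives the aligner, the counter or the gene model. The authors deposited raw counts per gene, with 60 h and 108 h in one file and 84 h and 132 h in the other, and the authors deposited RPKM values split in the same way.

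Counts were tested with edgeR 4.0.16 in R 4.3.3 (robust quasi-likelihood test, TMM scaling, filterByExpr with a minimum count of 10 and a minimum total of 15), 2-sided, with Benjamini-Hochberg adjustment over all genes and a threshold of 0.05. The 4 groups of a table shared 1 fit, and contrasts between tables used all 40 libraries. A fold change is treated over control, on the log2 scale, with its standard error. CPM, counts per 1e+06, used TMM-scaled library sizes. For ratios to Adipoq the Adipoq count of a library was its library size. Alternatives were DESeq2 1.42.0, limma 3.58.1 on log2(RPKM + 0.1) and log2(RPKM + 1), other scalings and filters, fits of 2 groups, a term for the run of animal numbers, and leaving out single libraries or the 11 with a skin signal (mean log2 CPM of the markers above 1.5). Scripts were tested on simulated data.

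Genes named beside the 10 were, for each pathway list, the 3 of smallest p in each CLA comparison, all tested Serpina3 genes, and the 3 genes most like Adipoq, Lep, Cebpa and Cebpd among genes averaging at least 1 on the log2 CPM scale, without predicted genes. The 10 genes and the lists were chosen with earlier results of these data known. Motifs were searched on both strands in RefSeq promoter windows, and gene overlaps in GENCODE M21. The mice are biological replicates per the series' design text. At 18.2 to 40.0 (in units of 1e+06) counts per library, spread between mice and not counting error limits the precision for these 10 genes.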

Additional observations from a re-analysis of the deposited data

Results flagged for a closer look

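Among 80 groups of 5 glands (10 genes in 8 groups), 6 had 1 gland that stood further from the rest than Dixon's 95% critical value of 0.71 allows, as a share of the group's range. Chance flags about 1 in 20 groups. Rbp4 in CLA replicate 4 at 108 h had 66.7 CPM, against 90.9 to 96.0 CPM in the other 4. The same library had 505 CPM of Cebpa, against 591 to 621 CPM in the others of its group. Pparg in CLA replicate 1 at 132 h had 234 CPM, against 147 to 169 CPM in the others. Lep in control replicate 3 at 84 h had 645 CPM, against 192 to 305 CPM in the others. Cebpb in control replicate 4 at 132 h had 238.5 CPM, against 101 to 116 CPM in the others. Cebpd in control replicate 4 at 108 h had 47.3 CPM, against 25.8 to 28.1 CPM in the others.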

How the results depend on the processing

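No paired analysis was possible because the titles give each mouse a number of its own, and the replicate numbers used here only name the mice and tie none of them across groups. With 1 library left out, the fold changes of the 10 genes over all contrasts gave 1400 values: 1376 kept their direction and side of the threshold, 19 lost a call, 5 gained one and 0 turned a called direction. Over the other settings, the scaling to Adipoq aside, 563 of 580 values kept both, 12 lost a call, 5 gained one and 0 turned a called direction. In neither set was a sign change of a value called in neither fit counted as a turn (28 and 20 such values).

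Scaling to Adipoq turned 11 called or newly called values of the 10 genes, as the construction of that scale sets Adipoq at 0. At 108 h these were Lep 0.043, Retn 0.091, Rbp4 0.078, Pparg 0.65 and Cebpa 0.49. At 132 h these were Lep 0.89, Retn 0.022, Serpina3c 0.0052, Pparg 0.77, Cebpa 0.47 and Cebpb 1.45. It turned 15 values of other named genes: Vegfa 0.33, Cdh13 0.46, Pnpla2 0.34, Plin1 0.37, Plin4 0.20, Dlk1 0.10 and Cp 0.72 at 108 h, and Vegfa 0.29, Cdh13 0.55, Pnpla2 0.27, Plin1 0.41, Plin4 0.042, Dlk1 0.41, Cp 0.71 and Serpina3m 0.92 at 132 h. Genes called in all on that scale were 281 for estrogen at 60 h, 458 at 84 h, 15210 for CLA at 108 h and 15434 at 132 h, with 4 of the 10 genes higher and 2 lower at 108 h and 5 higher and 1 lower at 132 h.

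The count of genes called for estrogen at 60 h (1119) was 593 with no filter, 1878 with DESeq2, 680 with limma on log2(RPKM + 1), 742 with the 2 groups alone and 513 without the libraries with a skin signal. DESeq2 called 1617 genes for estrogen at 84 h (931 by edgeR), and 1 of the 10 genes lower at 60 h. The calls for estrogen split into 920 higher and 288 lower at 60 h under upper-quartile scaling (702 and 417 under TMM), and into 712 and 231 at 84 h (592 and 339 under TMM). With limma on log2(RPKM + 0.1), 1 of the 10 genes was higher with CLA at 132 h (also with limma on log2(RPKM + 1)) and 1 in CLA at 132 h minus estrogen at 84 h, 5 genes differed between the CLA times and 0 between the estrogen times, and 990 genes, 1 of the 10 among them, differed among controls. Over the 4 comparisons 63.9% to 85.9% of called genes were higher in the RPKM fits, against 48.2% to 63.6% by edgeR. Without the libraries with a skin signal, 209 genes were called for estrogen at 84 h, 3198 in CLA at 132 h minus estrogen at 84 h, 0 between the estrogen times and 7 among controls, with 0 of the 10.

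Leaving out 1 library gave 316 (without estrogen replicate 1) to 1210 genes for estrogen at 60 h, with 1 to 4 of the 10 genes higher, and 443 (without control replicate 1) to 1152 at 84 h. It gave 0 to 1 of the 10 genes higher in CLA at 132 h minus estrogen at 84 h, 1 to 2 genes between the estrogen times and 0 to 137 between the CLA times, the 137 without CLA replicate 4 of 108 h. The cause of these shifts was not tested.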
